A study of Medicago truncatula with 6 samples.

Results

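In roots of *Medicago truncatula* in contact with the fungus *Gongronella* sp. w5 (w5), 12 genes stood at a mean under 1 CPM, while each of the 3 root libraries without w5 held them at 2 CPM or more. CPM is the read count of a gene per 1000000 counts of its library. These 12 were found among 50443 genes in the count table, and 14627 genes reached 2 CPM in each library without w5. A 13th gene that met both limits, Medtr8g075610 (a hydroxycinnamoyltransferase), and 4 further genes were left out of the choice by name. The genes were thus chosen by their counts in both groups, so their differences between the groups are given as a description. With the groups exchanged, the same limits gave 14 genes, and no gene at 2 CPM or more in each library with w5 had 0 counts in all libraries without it.

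Roots with w5 were of *M. truncatula* line A17, stood on agar without glucose beside glucose medium that carried the free-living fungus, and were taken where they touched it, 16 days after inoculation. Roots without w5 were of the same line, from plants grown alone on the agar without glucose. The methods do not say whether their plates also held the glucose medium, or on which day these roots were taken. If that medium was absent, its presence and that of the fungus cannot be told apart. Each group had 3 biological replicates, and 3 seeds were planted on a plate. How many plants made up a replicate is not stated in the sources used here. No mutant, transgene or drug was used in either group. The libraries with w5 held 6547753, 6822646 and 6672538 counts, and those without w5 held 7539956, 7086538 and 6983430 counts. At this depth 1 count is worth between 0.133 and 0.153 CPM, so a level of 1 CPM rests on about 7 counts. Between libraries of 1 group the chi-square per gene was 9.29 to 29.4, where sampling noise alone gives about 1. The tissue label was not checked against root markers here. In whole root RNA, fewer cells of a type and less RNA per cell cannot be told apart.

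Annotated functions were at hand for 8 of the 12 genes, and they cover several roles. Thaumatin-like proteins form the PR-5 family of pathogenesis-related proteins, secreted proteins several of which slow fungal growth in culture. Glutaredoxins are small proteins that reduce disulfide bonds with glutathione, and in *Arabidopsis* several of the plant-specific CC type respond to nitrate. NPH3 proteins work downstream of the blue light receptors called phototropins, in *Arabidopsis* as adaptors of a ubiquitin ligase. P-type cyclins resemble the yeast cyclin PHO80, which acts in phosphate signalling, and UDP-glucosyltransferases attach glucose to small molecules such as flavonoids and hormones. S54 peptidases, the rhomboid family, cut other proteins inside membranes. The remaining 2 are a protein of the thylakoid lumen, the space inside the photosynthetic membranes, and a putative heat shock protein-binding protein. The 4 genes Medtr5g096670, Medtr4g078885, Medtr3g078160 and Medtr4g036495 have no described function in the sources used here.

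Summed over the 12 genes, the libraries with w5 held 12.1, 9.09 and 8.24 CPM, against 106, 57.0 and 34.8 CPM in those without. Without Medtr5g096670 the sums were 11.0, 8.94 and 6.74 CPM with w5, against 54.9, 48.4 and 32.1 CPM without w5. The median log2 fold change of the 12 was -2.15, where that of all 16905 genes tested was -0.01. In 11 of the 12 genes every library with w5 lay below every library without, as in 9.38% of all genes tested. At an unadjusted p under 0.05 and a log2 fold change under -1, 10 of the 12 passed edgeR's quasi-likelihood test, as did 2.73% of all genes tested. At an adjusted p under 0.05 none of the 12 passed it (0.00592% of all genes tested did), and 5 passed with DESeq2 (1.82% of all genes with an adjusted p). Since the same counts chose the genes, nothing is read from these shares.

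**Figure D1:**
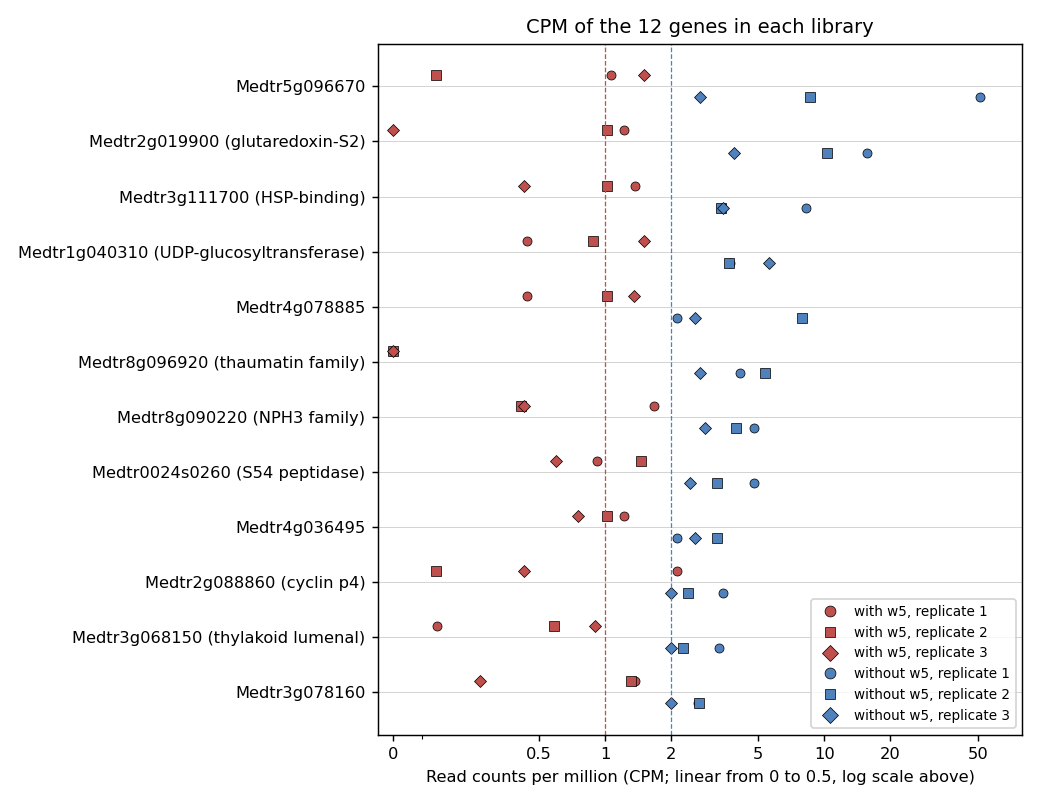
CPM of the 12 genes in each library, with libraries with w5 above (red) and libraries without w5 below (blue) in each row, and a marker shape for each replicate number. The dashed lines are the limits of 1 CPM (mean with w5) and 2 CPM (each library without w5). Medtr8g096920 is at 0 in all 3 libraries with w5, and only Medtr2g088860 has overlapping groups.

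The thaumatin gene Medtr8g096920 was the only one of the 14627 genes with 0 counts in all libraries with w5. Its counts were 0, 0 and 0 with w5, against 31, 38 and 19 without. In CPM these are 4.11, 5.36 and 2.72 without w5, a mean of 4.06 ± 1.32 (SD, n = 3). For a count of 0 over the 3 libraries with w5 a floor of 3 counts was set, or 0.150 CPM over the group. The 95% interval of this count, for counting error alone, reaches 3.69 counts, above the floor. The mean without w5, taken as exact, was 27.2 times the floor, so this fold is only a rough bound. The gene is annotated on the minus strand of chromosome 8, with ends at 40681554 and 40682449 (the sources used here name no plant genome build), and its length in the table is 896 bases. The 11 other genes were reduced, not absent. They kept between 11 and 20 counts over the 3 libraries with w5, and 10 of the 12 had a count in each of these libraries.

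The other thaumatin gene among the genes picked by the study, Medtr5g022350, stayed expressed in both groups. It had 18, 43 and 32 counts with w5, against 85, 84 and 50 counts without. This is 4.62 ± 1.78 CPM with w5 and 10.1 ± 2.56 CPM without w5 (SD, n = 3 each), or -1.11 ± 0.37 on the log2 scale (standard error; edgeR quasi-likelihood, adjusted p = 0.273). The groups did not overlap, but the difference did not pass at an adjusted p under 0.05.

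The glutaredoxin gene Medtr2g019900, annotated as monothiol glutaredoxin-S2, had 8, 7 and 0 counts with w5, against 118, 73 and 27 without. In CPM these are 1.22, 1.03 and 0 with w5, against 15.6, 10.3 and 3.87 without. The libraries without w5 spread over 4.05 times. The lowest of them lay 2.64 CPM above the highest library with w5, a gap that the limits of the choice favour. The level with w5 was 0.749 ± 0.656 CPM, which is 7.54% of the 9.94 ± 5.90 CPM without w5 (SD, n = 3 each). The fitted log2 fold change was -3.69 (standard error 0.81). In the same annotation the gene spans 6567364 to 6568225 of chromosome 2 on the minus strand, and the table gives it 862 bases.

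The 3 other glutaredoxin genes that the study picked had values on both sides. Medtr1g088910 (glutaredoxin-C1) had 3, 0 and 0 counts with w5, against 40, 26 and 6 counts without, and missed the limit of 2 CPM in replicate 3 alone. Medtr7g026770 (glutaredoxin-C3-like) had 0, 0 and 2 counts with w5, against 13, 10 and 1 counts without. Both were removed by the expression filter and have no test. All 3 of these low glutaredoxin genes had their highest count in replicate 1 and their lowest in replicate 3 of the roots without w5. Medtr1g015890, a glutaredoxin-like gene, had 57, 82 and 75 counts with w5, against 26, 28 and 23 counts without. This is 10.7 ± 1.73 CPM with w5 and 3.56 ± 0.344 CPM without w5 (SD, n = 3 each), or 1.59 ± 0.28 on the log2 scale (standard error; edgeR quasi-likelihood, adjusted p = 0.0721). Its groups did not overlap, and the adjusted p missed 0.05.

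By their descriptions, a thylakoid lumen gene and an NPH3 gene were tied to plastids and light. The thylakoid lumen gene Medtr3g068150 had 1, 4 and 6 counts with w5, against 25, 16 and 14 counts without. This was 0.546 ± 0.375 CPM with w5 and 2.53 ± 0.695 CPM without w5 (SD, n = 3 each), or 21.6% of the level without w5. It spans 30781995 to 30786153 of chromosome 3 on the minus strand. The NPH3 gene Medtr8g090220 had 11, 3 and 3 counts with w5, against 36, 28 and 20 counts without. It kept 22.2% of its level, with 0.856 ± 0.713 CPM with w5 and 3.86 ± 0.958 CPM without w5 (SD, n = 3 each), and replicate 1 was the highest in both groups. Without replicate 1 with w5 its log2 fold change was -3.04, against -2.15 with all libraries. Without replicate 2 or replicate 3 with w5 it was -1.82 and -1.85. It spans 37858396 to 37862539 of chromosome 8 on the plus strand. In neither gene did the groups overlap. A plastid term stood in the annotation of 1 of the 8 annotated genes (12.5%), of which 6 had any term. Among genes picked by the study, 136 of 440 (30.9%) with a lower mean with w5 had such a term. Of those with a higher mean, 5 of 350 (1.43%) did. A count of 1 among 8 is too small to tell its share from either of these.

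The 3 genes that share the words NPH3, phototropin or blue light with Medtr8g090220 were all lower with w5 at an unadjusted p under 0.05 and a log2 fold change under -1, and none was higher. They were picked by the study on these libraries, so their direction is not independent evidence. Phototropin-2 (Medtr8g070530), a blue light receptor, had 18.7 ± 5.87 CPM with w5 and 58.1 ± 19.8 CPM without w5 (SD, n = 3 each), or -1.63 ± 0.30 on the log2 scale (standard error; edgeR quasi-likelihood, adjusted p = 0.0792). A second NPH3 gene, Medtr4g095430, had 9.92 ± 4.83 CPM with w5 and 23.6 ± 6.82 CPM without w5 (SD, n = 3 each). The photosystem, thylakoid, chlorophyll and light-harvesting list was likewise drawn from the genes picked by the study. All 49 of its tested genes other than Medtr3g068150 were lower at these limits, with a median log2 fold change of -1.45. The study picked genes of both directions, 440 with a lower and 350 with a higher mean with w5. Its choice therefore favours large changes but does not by itself set their direction. The genes were still picked on these libraries, so they are not independent evidence and nothing is read from them.

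Green tissue markers were also lower with w5. The 41 such genes among those picked by the study, for photosystems, light harvesting and the small chain of rubisco, summed to 2610, 2548 and 3290 CPM with w5, against 8525, 9487 and 5053 CPM without w5. None of the 41 was at 0 in any library, and all 39 that were tested were lower with w5 at an unadjusted p under 0.05 and a log2 fold change under -1, a direction that the study's choice of genes does not make independent evidence. Their part in the levels of the 12 genes was not tested. Among the libraries without w5, replicate 3 had the lowest sum of these markers and was also the lowest for 8 of the 12 genes. Replicate 1 was the highest for 7 of the 12 genes, whereas the sum of the markers was highest in replicate 2. The share of all genes with such orders was not computed, and these libraries also served in the choice. Nothing is therefore read from the orders.

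**Figure D2:**
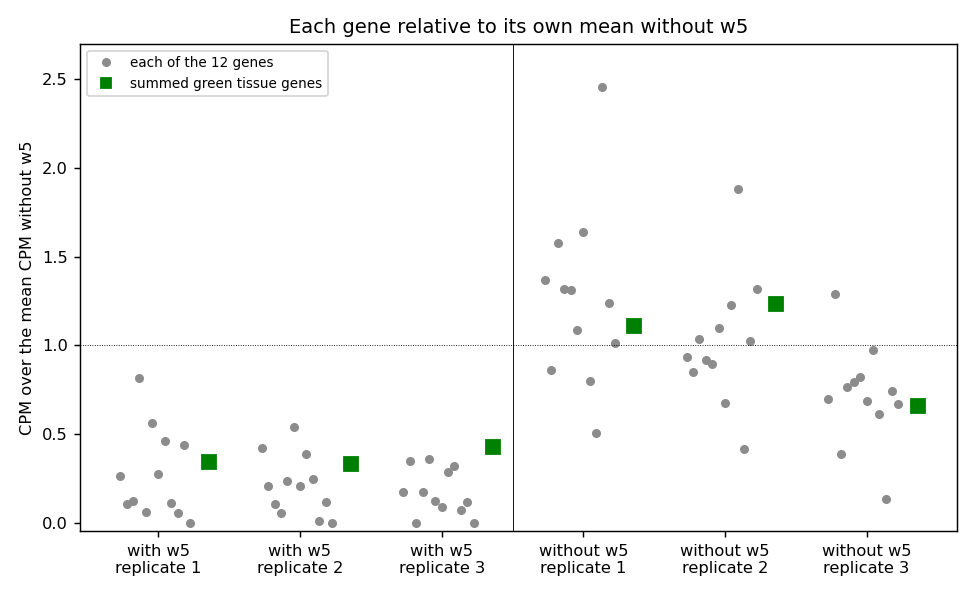
Each grey point is 1 of the 12 genes, as its CPM in a library over its mean CPM without w5, and each green square is the summed CPM of the 41 green tissue genes on the same scale. Libraries with w5 stand on the left and libraries without w5 on the right. The green squares are lower in all libraries with w5 (2610, 2548 and 3290 CPM) than in those without (8525, 9487 and 5053 CPM), and the points for the libraries without w5 spread most in replicates 1 and 2.

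The UDP-glucosyltransferase gene Medtr1g040310 had 3, 6 and 10 counts with w5, against 28, 26 and 39 counts without. It was the only one of the 12 genes with its highest level without w5 in replicate 3. Its level was 0.945 ± 0.523 CPM with w5 and 4.32 ± 1.09 CPM without w5 (SD, n = 3 each), or 21.9% of the level without w5, and the groups lay 2.17 CPM apart. The gene spans 14868892 to 14870403 on the plus strand of chromosome 1 in the annotation. Of 7 other glucosyltransferase genes that the study picked on these libraries, 3 were tested. All 3 were higher with w5 at an unadjusted p under 0.05 and a log2 fold change over 1. Given that choice this is not independent evidence, and glucosyltransferase genes outside it were not examined. The largest of these changes was that of Medtr7g102460, with 60, 32 and 54 counts with w5, against 5, 10 and 2 counts without. It stood 3.20 ± 0.55 higher with w5 on the log2 scale (standard error; edgeR quasi-likelihood, adjusted p = 0.0721). The 4 others had too few counts to be tested. Of these, Medtr6g014170 had 1, 0 and 0 counts with w5, against 10, 10 and 5 counts without. The remaining 3 had higher sums with w5, with 11, 14 and 3 counts against 0, 2 and 3 without w5 for Medtr7g039550, 5, 12 and 10 against 1, 2 and 2 for Medtr2g008210, and 8, 9 and 17 against 1, 1 and 7 for Medtr0078s0200.

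The cyclin gene Medtr2g088860 was the only one of the 12 whose groups overlapped. It had 14, 1 and 3 counts with w5, against 26, 17 and 14 counts without. In CPM, replicate 1 with w5 stood at 2.14, above the 2.005 of replicate 3 without w5. The group levels were 0.911 ± 1.07 CPM with w5 and 2.62 ± 0.746 CPM without w5 (SD, n = 3 each). Without replicate 1 with w5 the log2 fold change was -3.04, against -1.51 with all libraries. It was weaker, at -0.987 and -1.19, without replicate 2 or replicate 3 with w5. The gene spans 37474092 to 37475502 of chromosome 2 on the minus strand. The other P-type cyclin picked by the study, Medtr7g081130, had the opposite direction, with 45, 26 and 22 counts with w5, against 2, 16 and 14 counts without. It stood 1.63 ± 0.65 higher with w5 on the log2 scale (standard error), which passed 0.05 only before adjustment (edgeR quasi-likelihood, adjusted p = 0.387).

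The putative heat shock protein-binding gene Medtr3g111700, at 52237819 to 52242805 of chromosome 3 on the minus strand, had 9, 7 and 3 counts with w5, against 62, 24 and 24 counts without. Its highest library without w5, replicate 1, was 2.43 times the lowest, and the level with w5 was 18.9% of that without (0.950 ± 0.467 CPM with w5 and 5.02 ± 2.78 CPM without w5, SD, n = 3 each). Among the genes picked by the study on these libraries, 5 others annotated with heat shock or chaperones were tested. Of these, 3 were lower and 2 were higher at an unadjusted p under 0.05 and a log2 fold change beyond 1. Genes outside that choice were not examined. The heat shock transcription factor gene Medtr4g088900 was among the higher ones, with 27.3 ± 3.07 CPM with w5 and 6.63 ± 3.55 CPM without w5 (SD, n = 3 each; edgeR quasi-likelihood, adjusted p = 0.0773). The S54 peptidase gene Medtr0024s0260, placed from 113389 to 116979 on the plus strand of an unanchored scaffold, had 6, 10 and 4 counts with w5, against 36, 23 and 17 counts without, and kept 28.5% of its level (0.994 ± 0.438 CPM with w5 and 3.48 ± 1.19 CPM without w5, SD, n = 3 each). Its groups lay 0.969 CPM apart.

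The 4 genes with no described function held both the largest and the smallest fold changes among the 11 genes with counts in roots with w5. Medtr5g096670 had 7, 1 and 10 counts with w5, against 385, 61 and 19 counts without. Replicate 1 without w5 was 18.8 times replicate 3, so the mean of 20.8 ± 26.4 CPM without w5 rests on 1 library (0.905 ± 0.691 CPM with w5, SD, n = 3 each). The log2 fold change was -4.49 (standard error 1.18), and -2.59 when replicate 1 without w5 was left out. This gene alone gave 51.1 of the 106 CPM that the 12 genes summed to in that library. Medtr4g078885 had 3, 7 and 9 counts with w5, against 16, 56 and 18 counts without, and its high value was in replicate 2. Its level was 0.944 ± 0.451 CPM with w5 and 4.20 ± 3.21 CPM without w5 (SD, n = 3 each). Its log2 fold change was -2.11 (standard error 0.66), and -1.28 without replicate 2 of the roots without w5.

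Medtr3g078160 and Medtr4g036495 sat at the edge of the choice. Medtr3g078160 had 9, 9 and 2 counts with w5, against 20, 19 and 14 counts without, and kept 40.8% of its level. Medtr4g036495 had 8, 7 and 5 counts with w5, against 16, 23 and 18 counts without, and kept 37.7%. Their log2 fold changes were -1.27 (standard error 0.57) and -1.38 (standard error 0.45). Both had means with w5 just under the limit, at 0.998 ± 0.605 and 0.999 ± 0.237 CPM, against 2.45 ± 0.383 and 2.65 ± 0.565 CPM without w5 (SD, n = 3 each). The first genes past that limit were Medtr2g096330 at 1.003 CPM, the DUF506 gene Medtr2g013780 at 1.01 CPM and the adenylate isopentenyltransferase gene Medtr1g072540, an enzyme of cytokinin synthesis, at 1.05 CPM. On the other limit, Medtr2g088860, Medtr3g068150 and Medtr3g078160 had a lowest level without w5 of 2.005 CPM, while Medtr8g023760 missed it at 1.99 CPM and both Medtr1g081180 and the ferredoxin gene Medtr8g088720 at 1.86 CPM. A further 74 genes in all met the limit with w5 and reached 2 CPM in only 2 of the 3 libraries without it.

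Among the 14627 genes at 2 CPM or more in each library without w5, the 12 were not simply those that lost the largest share. Ordered by the level with w5 as a percent of the level without, Medtr8g096920 ranked 1, Medtr5g096670 ranked 4 and Medtr2g019900 ranked 5. Medtr3g078160, with 40.8% left, ranked 268. Of the 48 genes left with 25% of their level or less, 8 were among the 12. The 12 were mostly weakly expressed without w5. The limit of a mean under 1 CPM with w5 favours this, since a gene of higher level meets it only after a larger loss. Nothing is therefore read from the ranks or percentiles. Medtr3g078160, Medtr3g068150, Medtr2g088860 and Medtr4g036495 were in the lowest 0.520% of these genes by mean CPM without w5, and only Medtr5g096670 (percentile 42.7) and Medtr2g019900 (percentile 23.8) lay above percentile 10.

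**Figure D3:**
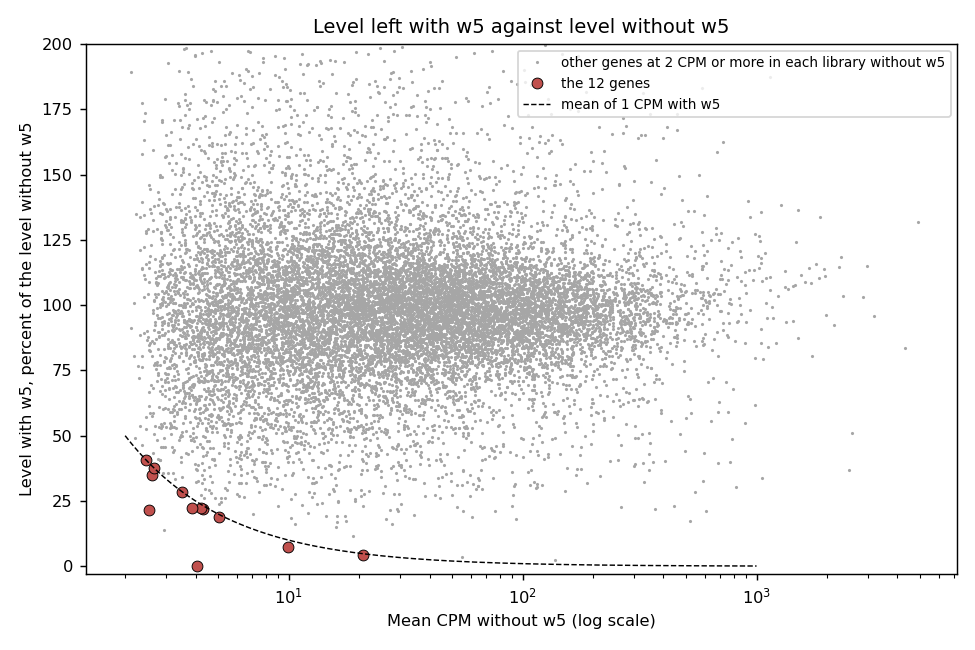
Mean CPM without w5 (log scale) against the mean level with w5 as a percent of that without, for the 14627 genes at 2 CPM or more in each library without w5. The 12 genes (red) lie under the dashed line of 1 CPM with w5, most of them at the low end of expression. Another 201 genes above 200% are not drawn, and the gene under the line that is not red is Medtr8g075610, which was left out by name.

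Levels per gene length put the same pair of genes at the top without w5. In FPKM (counts per kilobase of gene and 1000000 counts of the library, as deposited), Medtr5g096670 had 12.2 ± 15.5, Medtr2g019900 had 11.5 ± 6.84 and Medtr4g078885 had 6.26 ± 4.79 without w5 (SD, n = 3). These 3 levels differed by less than their spread. Medtr8g096920 followed with 4.54 ± 1.48 FPKM, and the lowest was Medtr3g078160 with 0.797 ± 0.125 FPKM, the longest of the 12 at 3069 bases. With w5, Medtr4g078885, the shortest of the 12 at 671 bases, had 1.41 ± 0.672 FPKM, Medtr2g088860 had 0.944 ± 1.11 FPKM and Medtr2g019900 had 0.869 ± 0.761 FPKM (SD, n = 3), which differed by less than their spread.

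Genes beside the 12 in the order of the gene IDs were also read, since this order follows position along a chromosome and was not used in the choice. The 12 genes lay on chromosomes 1, 2, 3, 4, 5 and 8 and on 1 scaffold, and no pair of them stood side by side. Of the 24 flanking genes, 9 had no count in any library and 13, beside 8 of the 12 genes, were tested. None of the 13 passed an unadjusted p under 0.05 with a log2 fold change beyond 1 in either direction, where 4.77% of all genes tested did, a share too small to tell 13 genes from the rest. Their log2 fold changes lay between -0.23 and 0.63, with a median of 0.04, where the median over all genes tested was -0.01. Of the flanking genes with counts that were not tested, Medtr3g078170, beside Medtr3g078160, had 13, 8 and 2 counts with w5, against 1, 4 and 0 counts without, and Medtr1g040315 had 1 count in all. Beside the thaumatin gene, Medtr8g096910 had 252 ± 80.9 CPM with w5 and 298 ± 156 CPM without w5, and Medtr8g096930 had 81.9 ± 20.6 CPM with w5 and 90.4 ± 23.3 CPM without w5 (SD, n = 3 each). Beside the glutaredoxin gene, Medtr2g019860 had the largest change of the 13, with 103, 123 and 115 counts with w5, against 75, 68 and 95 counts without (log2 fold change 0.63 ± 0.23, standard error; edgeR quasi-likelihood, unadjusted p = 0.0234, adjusted p = 0.328).

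**Figure D4:**
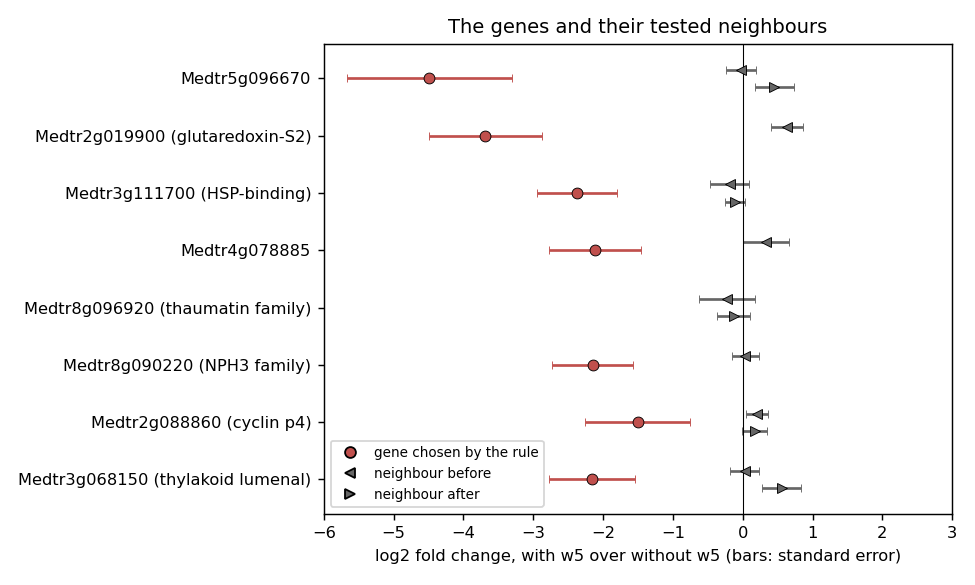
Log2 fold change of with w5 over without w5 for 7 of the 12 genes (red circles) and for the 13 tested genes that flank these 7 and Medtr8g096920 (grey triangles), with bars of 1 standard error. The flanking genes lie between -0.23 and 0.63. No circle is drawn for Medtr8g096920. It has 0 counts with w5, so the counts do not resolve the size of its fitted log2 fold change of -7.82.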

How the data were processed

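Root RNA was sequenced from 3 libraries with w5 and 3 without. The authors deposited whole-number read counts for each gene, not normalized, from a stranded total RNA kit and paired reads. The FPKM values were deposited beside them and equal the count per kilobase of the gene length and 1000000 counts of the library (largest relative difference 5.09e-15). The length column holds other values, gene lengths in bases, as deposited by the authors. In the submitters' processing notes stand Bowtie 0.12.2 and mm8, a mouse build. The methods name the *M. truncatula* genome database as the reference. The counting program, strand setting and release of that reference were not found in the sources used here. Close copies of a gene, or overlapping genes, may therefore share reads.

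CPM were taken over each library's total. All genes kept by filterByExpr (16905) were scaled by TMM and tested in edgeR 4.0.16 (R 4.3.3) with robust quasi-likelihood fits of the condition alone and Benjamini-Hochberg adjustment. The alternatives used DESeq2 1.42.0 without that filter, limma 3.58.1, other scalings, filters and limits, a block for the replicate number, and fits that left out 1 library each. All 12 genes passed the filter, through the libraries without w5. Intervals and floors cover counting error only. Descriptions and gene lists come from the supplementary gene table of the study, which holds 790 genes picked on these libraries, so calls in these lists are not independent evidence. Of these genes all 8 annotated members matched a RefSeq gene ID. Every one of the 12 genes is named. Per-library values were meant for genes with a described function and are also given for the 4 others, which was decided after their values were seen. Related genes were named by words shared in their descriptions, also after their values were seen. The members and lists were chosen with earlier results of these data known. Relatives by protein sequence and promoter motifs were not analysed here.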

Additional observations from a re-analysis of the deposited data

How the results depend on the processing

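The number of genes found by the limits depended on them. It was 180 with 1 CPM and 3 with 3 CPM as the limit without w5, 1 and 60 with a mean limit of 0.5 and 1.5 CPM with w5, and 2 when each library with w5 had to be under 1 CPM. With FPKM in place of CPM it was again 12, of which 5 were shared, and with TMM-scaled totals it was 11, without Medtr4g036495. Leaving out each library in turn gave between 15 and 52 genes (26, 22 and 15 without replicates 1, 2 and 3 with w5, and 27, 31 and 52 without replicates 1, 2 and 3 of the controls). Medtr8g096920 and Medtr3g068150 were found in all 6 of these. That outcome was fixed in advance. Leaving out a control can only relax the limit without w5, and both genes were under 1 CPM in each library with w5. It is therefore no sign of stability.

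The number of all genes lower with w5 at an adjusted p under 0.05 was 1, and 0 with RLE scaling, with no scaling factors and with a filter at 1 CPM. It was 128 with no filter, 318 with DESeq2, 323 with edgeR's exact test and 1 with limma-voom. With each library left out it was between 0 and 91 (91 without control replicate 3). The exact test and limma-voom took the same 16905 genes, and with no filter every gene with a count was tested. Of the 12 genes, 0 passed this limit in the main fit. It was passed by 1 with no filter, 5 with DESeq2, 8 with the exact test and 1 with limma-voom. With each library left out, between 0 and 1 of the 12 passed. The direction of the 12 genes is set by the limits that chose them, so nothing is read from it or from these numbers. Of 168 fits of the 12 genes under the alternatives, 158 kept their side of an unadjusted p of 0.05. The calls lost were those of Medtr5g096670 with limma-voom, Medtr4g036495 without replicate 3 with w5 or without control replicate 2, and Medtr4g078885 without control replicate 2, and 6 calls were gained, for Medtr2g088860 and Medtr3g078160. With the replicate number as a block, 107 genes and 2 of the 12 passed the adjusted p. Deviations of libraries with the same number had correlations of 0.23, -0.05 and -0.03, and only the libraries numbered 1 correlated best with each other, so the number was not taken to pair them. At 11 to 20 counts per gene with w5, levels with w5 are not resolved from each other. The alternatives for protein similarity were not run.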

Other observations

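Some genes with related annotations were also at or near 0 counts with w5 but did not reach 2 CPM in each library without it. The chaperonin-like RbcX gene Medtr2g024300, of a family that helps rubisco to assemble, had 0, 0 and 0 counts with w5, against 5, 8 and 3 counts without. The gene Medtr3g107397, annotated as chaperon protein P13.9, had 0, 1 and 4 counts with w5, against 27, 18 and 5 counts without. In CPM the latter are 3.58, 2.54 and 0.716, so it missed the limit in replicate 3 alone. Both were removed by the expression filter and have no test.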
